A study of Mus musculus with 10 samples.

Results

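The cytosolic ribosomal proteins are the protein part of the ribosome, which translates messenger RNA. Small subunit proteins (symbols Rps) sit on the subunit that reads the messenger, and large subunit proteins (Rpl) on the subunit that joins amino acids. Their genes are among the most highly transcribed of any cell, and their messengers often begin with a terminal oligopyrimidine (TOP) tract, a C at the cap followed by a run of C and T, through which the mTOR pathway and the TOP-binding protein Larp1 control translation. Members were taken by symbol, as protein-coding genes named Rpl or Rps followed by a digit, with Rpsa, Rplp0, Rplp1 and Rplp2. Of 391 gene identifiers with such a symbol, 290 were not protein coding, and 9 Rps6k kinases and 6 pseudogenes annotated as coding were left out, which gave 86 members of the 55414 genes in each count table. Of the 86, 77 were subunit genes (31 of the small and 46 of the large subunit). The other 9 were 7 paralogs, the nucleolar relative Rpl7l1, and Rps19bp1, a binding partner of Rps19 that is not a ribosomal protein.

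RNA sequencing of polyadenylated RNA gave 10 mouse libraries of macrophages sorted for the uptake of apoptotic cells (efferocytosis). Wound Eff+ and wound Eff- macrophages (3 libraries each) came from skin wounds taken 3 days after wounding from LysMCreER/mTmG mice given tamoxifen for 6 days, so the Eff- cells shared the transgenes and the drug. In these mice a tamoxifen-dependent Cre, driven from the lysozyme M gene (Lyz2), switches a membrane reporter in myeloid cells, neutrophils included. Culture Eff+ and culture Eff- macrophages (2 libraries each) were grown from wild-type bone marrow with GM-CSF for 7 days and given apoptotic fibroblasts for 12 h. The names of the culture Eff- columns carry the letters NOAC, so whether those cells were exposed to apoptotic cells is unclear. The labels do not tie replicates to separate animals or cultures, and the p-values therefore reflect the spread between these libraries alone, which may be technical.

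Libraries held 39735437 to 57308823 counts in wounds and 17622740 to 27261880 in culture. Both wound libraries numbered 2 stood apart by Lyz2, a macrophage and neutrophil gene and the site of the Cre insertion, with 159484 counts in Eff+ and 345046 in Eff-, against 160 to 413 in the other 4 wound libraries. Both culture libraries numbered 1 stood apart by the number of genes with a count, 35649 in Eff+ and 44836 in Eff-, against 19649 and 18171 in those numbered 2. Macrophage markers (12 genes) took 2.58, 2.71 and 2.11% of counts in wound Eff+ and 2.13, 2.90 and 1.91% in wound Eff-. Cd14 alone took 1.75 to 2.19% in wound Eff+ and 1.22 to 1.27% in wound Eff-, and the 10 markers other than Cd14 and Lyz2 took 0.388, 0.301 and 0.356% in wound Eff+ against 0.860, 0.900 and 0.662% in wound Eff-. Without Lyz2 the markers took 0.522 and 0.845% in culture Eff+ against 0.289 and 0.832% in culture Eff-.

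Sequences around transcription starts were searched for the TOP-type start and for a common promoter motif. The start was read at the annotated base alone, so a gene with an imprecise annotation counts as without a TOP-type start. RefSeq (GRCm38.p6) start windows, from 250 bases before the start to 50 after it, were found for 66 of the 86 members by symbol. A start run, defined as C at the start base followed by at least 4 bases that are each C or T, was present in 14 of 78 member windows (17.9%) and in 823 of all 32851 windows (2.51%). The sequence CCGGAAG, an ETS-family motif, lay on either strand in 27 of 78 member windows (34.6%) and in 8.86% of all windows. The lines below give 40 bases before and 25 from the start of 6 members, 5′ to 3′ on the gene's strand, with the start run in capitals. They include Rps18, which fell in wound Eff+ macrophages, Rps6, the substrate of the S6 kinases, Rpl35, with the longest run among them, Rps27, which went against the family in wounds, its copy Rps27rt, and Rpl19, which fell and has no such run at the annotated start.
Rps18, chr17:33955641-33955705, minus strand: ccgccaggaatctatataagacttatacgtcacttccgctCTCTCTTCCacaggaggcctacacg
Rps6, chr4:86857343-86857407, minus strand: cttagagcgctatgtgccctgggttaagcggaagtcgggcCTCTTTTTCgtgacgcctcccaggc
Rpl35, chr2:39005107-39005171, minus strand: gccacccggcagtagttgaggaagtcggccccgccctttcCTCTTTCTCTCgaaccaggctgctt
Rps27, chr3:90213624-90213688, minus strand: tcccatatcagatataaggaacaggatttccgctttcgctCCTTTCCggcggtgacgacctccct
Rps27rt, chr9:114982715-114982779, minus strand: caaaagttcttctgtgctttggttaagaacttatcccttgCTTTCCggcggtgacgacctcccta
Rpl19, chr11:98026670-98026734, plus strand: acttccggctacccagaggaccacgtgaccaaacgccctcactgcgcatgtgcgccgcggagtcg
Run lengths were 9 bases in Rps18 and Rps6, 11 in Rpl35, 7 in Rps27 and 6 in Rps27rt. Rps27 and Rps27rt shared an identical stretch of 38 bases within the first 50 transcribed bases, while the bases before their starts differed. Reads that match both genes may have been left out of the counts or assigned to either, so both values are uncertain.

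Levels per gene length are given as TPM, computed from the counts and the deposited gene lengths. Among subunit genes these lengths ran from 383 bases in Rpl36 to 6270 in Rps15a. They are 1 value per gene and need not be the length of the messenger present, so the order of genes by TPM also depends on the annotation. The stalk protein Rplp0, which anchors the arm that recruits elongation factors, was the highest member in wounds, at 705 ± 36.4 TPM in Eff+ and 1403 ± 334 in Eff- (SD, n = 3 each). Next in wound Eff- came Rpl32 (455 ± 51.4 in Eff+ and 991 ± 236 in Eff-) and Rpl4 (404 ± 41.0 and 813 ± 194), and in Eff- these last genes lay within 1 SD of each other. In culture Rplp1, a partner of Rplp0 in the stalk, had the highest means, with 895 ± 45.5 TPM in Eff+ and 901 ± 148 in Eff- (SD, n = 2 each). It did not lead in the libraries numbered 2, where Rpl32 had 886 TPM against 863 in Eff+ and 979 against 796 in Eff-. The median subunit gene had 117 TPM in wound Eff+ and 221 in wound Eff-, and 179 in culture Eff+ and 156 in culture Eff-. TPM carry no scaling beyond the library's own sum. With library totals as the only scaling, the median log2 fold change of all genes tested in wounds was itself -0.42.

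Levels within the family ranged widely, although most of the proteins are built into the ribosome in equal numbers. In wound Eff-, 57 of the 77 subunit genes exceeded 100 TPM and 3 were under 10 TPM. Those were Rpl13a (3.89 ± 0.853 in Eff+ and 8.09 ± 2.75 in Eff-), Rpl24 (4.45 ± 1.12 and 6.23 ± 0.859) and Rps10 (0.512 ± 0.374 and 0.728 ± 0.581), all 3 also under 10 TPM in culture. The family has many processed pseudogenes, and the counting command of the wound table carries no option for reads that match several places. How many reads of each gene that left out was not tested. For this reason and for the gene lengths used, the levels compare genes only roughly. Rpl32, Rpl4, Rpl24 and Rps10 are named here for their levels, and Rpl35 above for its start run, after their values were seen. Noncoding genes with ribosomal protein symbols, together with the pseudogenes annotated as coding, took 0.005 to 0.010% of counts.

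**Figure D1:**
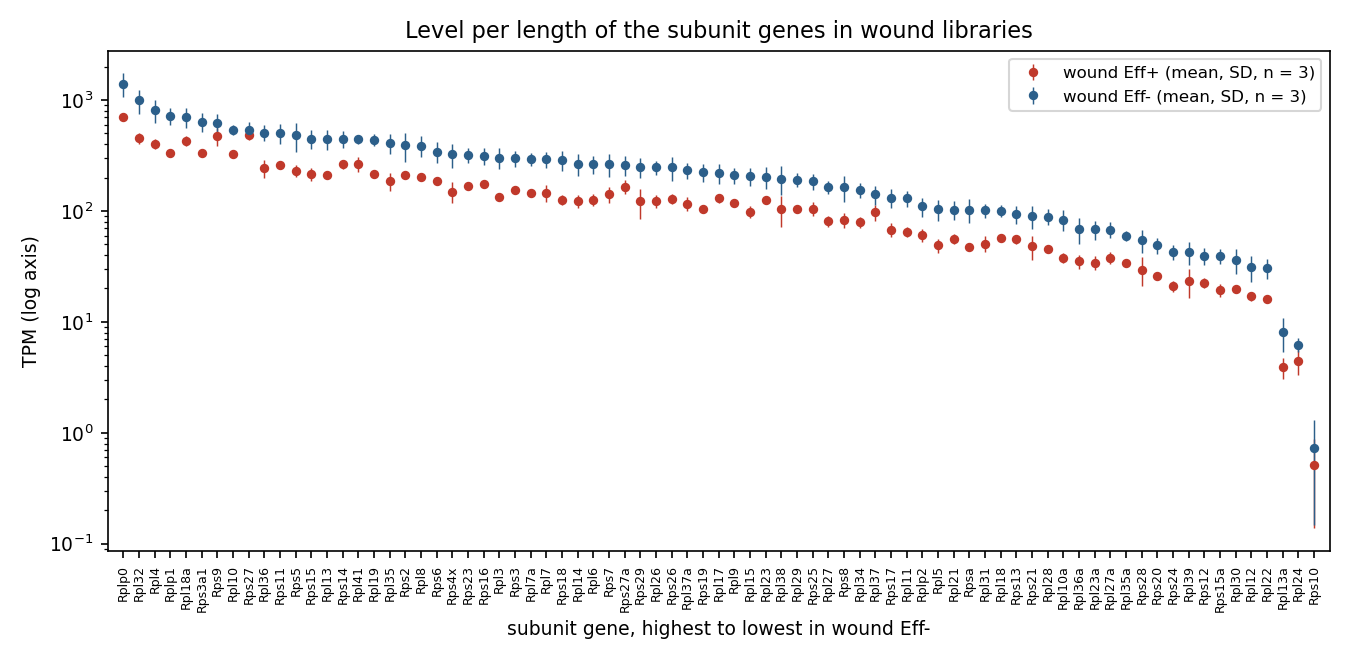
Mean level (TPM, log axis) of the 77 subunit genes in wound Eff+ (red) and wound Eff- (blue) macrophages, ordered by the Eff- level, with bars of 1 SD over 3 libraries. Levels run from 1403 TPM (Rplp0, Eff-) to under 1 TPM (Rps10), and the Eff+ point lies below the Eff- point for most genes. With library totals as the only scaling, the median log2 fold change of all genes tested was also below 0 (-0.42).

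Wound Eff+ macrophages devoted a smaller share of their counted RNA to ribosomal protein messengers than wound Eff- macrophages. The 86 genes together took 0.835, 0.714 and 0.764% of counts in Eff+ and 1.37, 1.67 and 1.12% in Eff-, without overlap. Large subunit genes took 0.460, 0.398 and 0.425% in Eff+ against 0.794, 0.958 and 0.646% in Eff-, and small subunit genes 0.359, 0.302 and 0.322% against 0.553, 0.687 and 0.453%. The largest 95% Wilson interval of a wound library's share spanned 0.00758 percentage points, which covers counting error only. Shares are scaled to library totals alone, under which the median log2 fold change was -0.42 over all genes tested and -0.88 over members. In such bulk libraries fewer cells of a type and less RNA per cell cannot be told apart.

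Markers of macrophages and of other cells moved with that difference. Of the 12 macrophage markers Adgre1, C1qa, C1qb and Mrc1 fell and Cd14 rose, 10 of 12 had negative log2 fold changes, and the summed level without Cd14 and Lyz2 was lower in each Eff+ library than in each Eff- library, as given above. Neutrophil markers (15 genes) took 2.03, 2.06 and 1.84% of counts in wound Eff+ and 0.499, 0.317 and 0.543% in wound Eff-. All 13 that were tested had positive log2 fold changes and 11 were called higher, and none of the 15 was at 0 in every library of a group. Fibroblast markers (10 genes) took 0.066 to 0.226% in Eff+ and 0.024 to 0.136% in Eff-. All 10 had positive log2 fold changes (median 1.27), and 2 of them were called higher. Keratinocyte markers (7 genes) took at most 0.006% in any library. All 5 that were tested had positive log2 fold changes and 3 were called higher. Krt14, Krt5, Krt1 and Dsp were at 0 in all wound Eff- libraries. Their part in the ribosomal protein values was not tested.

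**Figure D2:**
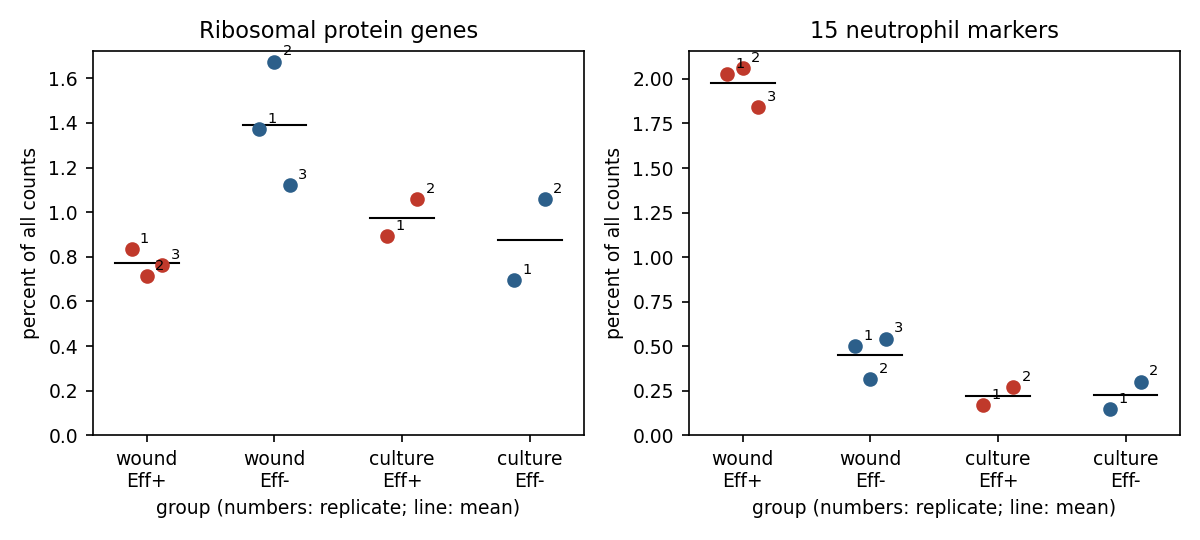
Percent of all counts in the 86 ribosomal protein genes (left) and in 15 neutrophil markers (right), 1 point per library with its replicate number, and a line at the group mean, Eff+ red and Eff- blue. In wounds the ribosomal protein share was 0.714 to 0.835% in Eff+ and 1.12 to 1.67% in Eff-, while the neutrophil share was 1.84 to 2.06% in Eff+ and 0.317 to 0.543% in Eff-.

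Tested gene by gene with edgeR over all 14908 expressed genes, 6 of the 85 testable members fell and none rose in wound Eff+ macrophages at a Benjamini-Hochberg adjusted p under 0.05 (Rpl10l was too low to test). That was 7.06% of members called lower, against 3.79% of all genes called lower, 7.39% called higher and 11.2% called in either direction. The 6 were Rps18, Rps19 and Rps24 of the small subunit and Rpl3, Rpl19 and the stalk gene Rplp1 of the large subunit. Values below are CPM (counts scaled to a common library size) after edgeR's trimmed-mean (TMM) scaling, and positions are those of the deposited annotation (GRCm39).

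Rps18 (ENSMUSG00000008668, chromosome 17, 34170973 to 34174975), a protein of the small subunit's head, had 149, 131 and 129.7 CPM in Eff+ libraries and 221, 272 and 191 CPM in Eff- libraries. Each Eff+ library lay below each Eff- library, and the log2 fold change was -0.74 (SE 0.18, edgeR adjusted p = 0.040). Rps19 (ENSMUSG00000040952, chromosome 7, 24583796 to 24589231), mutated in the human red cell disorder Diamond-Blackfan anaemia, had 218, 222 and 205 CPM in Eff+ and 319.9, 399 and 298 CPM in Eff-. The groups did not overlap, with a log2 fold change of -0.66 (SE 0.17, edgeR adjusted p = 0.048). Rps24 (ENSMUSG00000025290, chromosome 14, 24537193 to 24547027), another gene of that disorder, had 57.4, 55.5 and 60.4 CPM in Eff+ and 85.0, 99.2 and 76.9 CPM in Eff-. Its log2 fold change was -0.59 (SE 0.16, edgeR adjusted p = 0.049), again without overlap.

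Rpl3 (ENSMUSG00000060036, chromosome 15, 79961992 to 79976069), which reaches towards the peptidyl transferase centre, had 185, 195 and 180.3 CPM in Eff+ and 322, 365 and 248 CPM in Eff-. It fell by 0.74 on the log2 scale (SE 0.18, edgeR adjusted p = 0.042). Rpl19 (ENSMUSG00000017404, chromosome 11, 97917536 to 97921318), which takes part in bridges between the subunits, had 99.1, 96.0 and 95.4 CPM in Eff+ and 149, 156 and 129 CPM in Eff-. With the least spread among Eff+ libraries of the 6, it fell by 0.58 (SE 0.15, edgeR adjusted p = 0.044). Rplp1 (ENSMUSG00000007892, chromosome 9, 61820566 to 61821824) had 75.8, 71.8 and 71.1 CPM in Eff+ and 114, 135 and 100.4 CPM in Eff-, and fell by 0.68 (SE 0.16, edgeR adjusted p = 0.038). In all 6 genes the Eff- library numbered 2 was the highest of the 6 libraries.

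**Figure D3:**
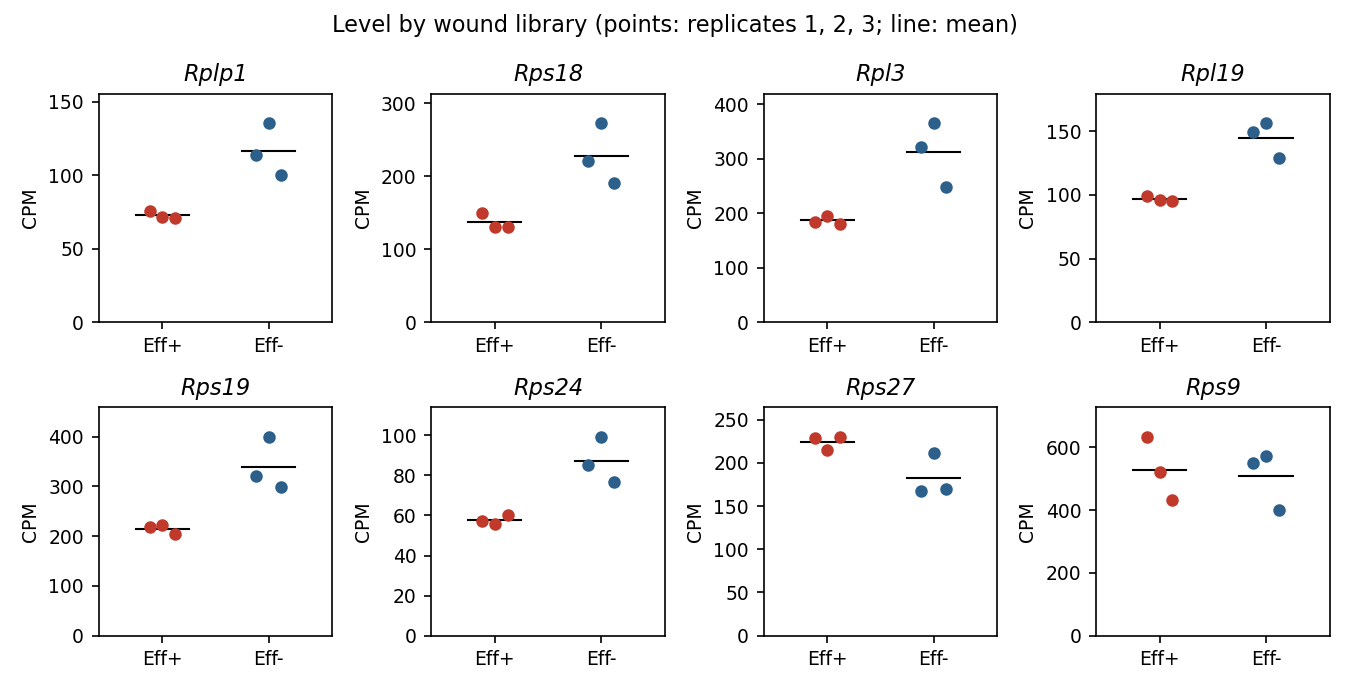
TMM-scaled CPM in each wound library (points, replicates 1 to 3 from left to right, line at the mean) for the 6 ribosomal protein genes that fell and for Rps27 and Rps9. The first 6 genes do not overlap between Eff+ (red) and Eff- (blue), Rps27 lies higher in Eff+ and Rps9 overlaps, and the log2 fold changes of the last 2 genes are below 0 when only library totals are scaled.

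These calls rested on the full set of libraries. Leaving out 1 library left 4 members (4.71%) called lower without Eff- library 3, beside 1.4% of all genes, and 0 without any one of the other 5. Over all genes 55 of 16170 were called lower without Eff- library 1, 8 of 15979 without Eff- library 2 and 0 without Eff+ library 2. Without Eff+ library 1 it was 454 of 15789 genes, and without Eff+ library 3 190 of 15692. Without both libraries numbered 2, 0 members and 0 genes were called (smallest adjusted p of a member by edgeR = 0.32, members' median log2 fold change -0.34). With library totals as the only scaling, which moved the median of all genes to -0.42 from -0.03 and the calls over all genes to 714 higher and 2654 lower against 1101 and 565, 66 members (77.6%) were called lower and none higher, beside 17.8% of all genes called lower. DESeq2 called 28 members (32.9%) lower and none higher, beside 8.08% of all genes lower and 1931 of the 14908 higher.

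The sign was shared far more widely than the calls. Of the 85 members 81 had a negative log2 fold change, where 51.3% of all genes did. The members' median was -0.48, beside -0.03 over all genes. In 60 members (70.6%) each Eff+ library was below each Eff- library, a pattern seen in 18.1% of all genes, and in 2 members each was above, as in 18.7% of all genes. With library totals as the only scaling 76 members (89.4%) lay below and 0 above, where 33.3% of all genes lay below. An unadjusted p under 0.05 was reached by 52 members and by 29.9% of all genes. The members are measured in the same 6 libraries and are not independent of each other.

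**Figure D4:**
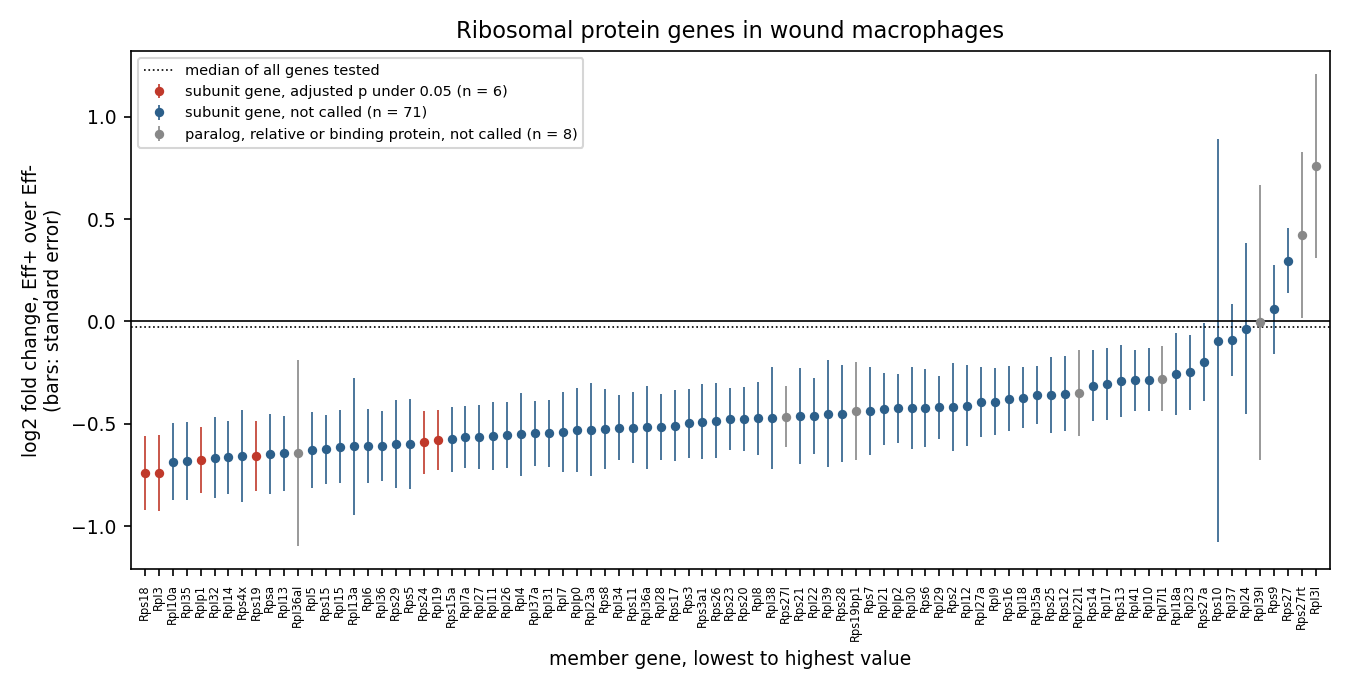
Log2 fold change of wound Eff+ over wound Eff- macrophages for the 85 tested members, lowest to highest, with bars of 1 standard error and a dotted line at the median of all genes (-0.03). The 6 called genes (red) lie among many uncalled genes of similar value, and only Rps9, Rps27, Rps27rt and Rpl3l lie above 0, of which Rps9 and Rps27 lie below 0 when only library totals are scaled.

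Both subunits took part. Of the 31 small subunit genes 3 fell and 29 had negative values (median -0.48), and of the 46 large subunit genes 3 fell and all 46 had negative values (median -0.52). The test of a difference between the subunits was not run. Among small subunit genes that were not called, Rpsa, which also serves as a laminin receptor, had 71.2, 66.3 and 63.0 CPM in Eff+ and 110.9, 124 and 79.3 CPM in Eff- (log2 fold change -0.65, SE 0.19, edgeR adjusted p = 0.069). Rps3, at the messenger entry channel, had 324, 307 and 292 CPM in Eff+ and 439, 494 and 372 CPM in Eff- (-0.50, SE 0.17, edgeR adjusted p = 0.097). For both genes the groups were apart. Rps6, phosphorylated downstream of mTOR, had 140.6, 136 and 116 CPM in Eff+ and 186, 203 and 138 CPM in Eff-, with overlap, and the X-linked Rps4x had a log2 fold change of -0.66 (SE 0.23) without overlap. Rps27a, which is made as a fusion with ubiquitin, had the smaller value of -0.20 (SE 0.19).

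Of the stalk, Rplp0 had 545, 558 and 459 CPM in Eff+ and 762, 905 and 589.8 CPM in Eff- (log2 fold change -0.53, SE 0.21, edgeR adjusted p = 0.13). Rplp2 had 52.1, 54.1 and 59.3 CPM in Eff+ and 63.2, 87.7 and 71.2 CPM in Eff- (-0.42, SE 0.17, edgeR adjusted p = 0.14). Only Rplp1 of the 3 stalk genes was called, though the groups were apart in each. Rpl5 (-0.63, SE 0.18) and Rpl11 (-0.56, SE 0.17), which can leave the ribosome to bind Mdm2, missed the threshold, at adjusted p = 0.065 and 0.069 by edgeR. So did Rpl10, which joins the large subunit late (-0.28, SE 0.15), Rpl22 (-0.46, SE 0.19) and the low Rpl13a (-0.61, SE 0.33).

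Rps27, a zinc-binding small subunit protein, stood apart from the family. It had 228, 215 and 230.1 CPM in Eff+ and 167, 211 and 170.0 CPM in Eff-, so that the Eff+ libraries were higher without overlap (log2 fold change 0.30, SE 0.16, edgeR adjusted p = 0.26). Per length and without TMM scaling it had 487 ± 51.5 TPM in Eff+ and 541 ± 88.4 TPM in Eff- (SD, n = 3 each). With library totals as the only scaling its log2 fold change was -0.10. Reads that also match Rps27rt (0.42, SE 0.40, and 0.02 under totals only) make both values uncertain. Rps9, a protein of the small subunit's body chosen after its values were seen, had 633, 519.8 and 433 CPM in Eff+ and 550.2, 572 and 399.8 CPM in Eff-, with overlap (0.06, SE 0.22, and -0.34 under totals only).

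Of the 8 tested members outside the subunit set none was called, and their median was -0.31. Rps27l, a paralog of Rps27 that p53 induces in human cells, had 59.4, 54.1 and 63.6 CPM in Eff+ and 75.7, 89.0 and 79.7 CPM in Eff- (log2 fold change -0.46, SE 0.15, edgeR adjusted p = 0.083). Its groups were apart. Rpl22l1, the paralog of Rpl22, had 13.6, 14.5 and 15.5 CPM in Eff+ and 17.8, 22.6 and 15.2 CPM in Eff- (-0.35, SE 0.21). Rpl7l1 (-0.28, SE 0.16) and Rps19bp1 (-0.44, SE 0.24) had values of like sign. The muscle paralog Rpl3l was near 2 CPM, with 2.26, 2.29 and 1.55 in Eff+ and 1.27, 1.14 and 1.19 in Eff- (0.76, SE 0.45, edgeR adjusted p = 0.30). Rpl36al (-0.64, SE 0.45) and Rpl39l (-0.00, SE 0.67) were under 4 CPM in each wound library.

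Subunit genes were also split by the start run described above. The 13 subunit genes with a start run in the RefSeq window had log2 fold changes of -0.74 to 0.30 in wounds (median -0.47), and the 44 with a window but no run had -0.68 to 0.06 (median -0.49). Rps18 and Rps27, whose sequences are given above, are the ends of the first range. No test was made of the difference. The run was read at the annotated start base alone, so a gene with an imprecise annotated start counts as without a run. The split therefore cannot tell which messengers begin with a TOP tract.

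Genes that make or serve the ribosome were read from lists, without a test of the lists themselves, and their counts stand beside 3.79% of all genes called lower and 7.39% called higher. Ribosome biogenesis genes (42 tested, median log2 fold change -0.49) held 5 that fell (11.9%) and none that rose, with Utp20, a processing factor of the small subunit, at 2.69, 1.16 and 1.03 CPM in Eff+ and 6.22, 6.89 and 5.92 CPM in Eff- (-1.96, SE 0.44). Pes1 (-0.80, SE 0.19), of the large subunit's processing complex, and Rrn3 (-0.90, SE 0.22), which brings RNA polymerase I to ribosomal DNA, were among them. Of 77 tested mitochondrial ribosomal protein genes, a separate family, 12 fell (15.6%) and 1 rose (median -0.55), with Mrps7 falling (-0.86, SE 0.16) and Mrpl33 rising (0.93, SE 0.20). The medians of these lists stand beside the members' -0.48.

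Among 18 elongation and TOP-messenger genes 3 fell (16.7%) and none rose (median -0.40), namely the helicase cofactor Eif4b (-0.77, SE 0.14), the nucleolar chaperone Npm1 (-0.74, SE 0.19) and Eif3e (-0.74, SE 0.19). Of 29 initiation factors 4 fell (13.8%) and 2 rose (median -0.38). Eif1, which guards start codon choice, rose to 1327, 1705 and 1207 CPM in Eff+ against 708, 642 and 786 CPM in Eff- (0.99, SE 0.20), and Eif5 rose as well (0.62, SE 0.16). Eif2b3, part of the exchange factor for the initiator tRNA carrier, fell (-1.24, SE 0.23), as did Eif3c (-0.68, SE 0.15) and Eif3m (-0.79, SE 0.18).

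Of 19 tested control genes 3 rose and 1 (5.26%) fell, with a median of -0.11. Larp1, which binds TOP messengers, fell to 19.8, 19.7 and 18.2 CPM in Eff+ against 31.4, 36.8 and 31.0 CPM in Eff- (-0.78, SE 0.16). Mxd1, a repressor that competes with Myc for Max and is abundant in neutrophils, rose to 4155, 5454 and 3976 CPM in Eff+ against 1253, 797 and 1203 CPM in Eff- (2.06, SE 0.25). Rragd, a GTPase that signals amino acids to mTOR (1.88, SE 0.38), and Max (0.77, SE 0.19) rose too. Fau and Rack1, ribosomal proteins whose symbols lie outside the rule, were at 0.41 (SE 0.16) and -0.69 (SE 0.22), and neither was called. Without Eff+ library 2 no gene of any list was called in wounds.

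In culture no member was called by edgeR, as no gene was (0.0% of 14867). No member reached an unadjusted p under 0.05, as 115 genes (0.774%) did, and DESeq2 called no member and 2 genes. Members took 0.893 and 1.06% of counts in culture Eff+ and 0.696 and 1.06% in culture Eff-, with overlap. Of 85 members 70 had positive and 15 negative log2 fold changes (53.8% of all genes were negative), with a median of 0.26 beside -0.05 over all genes. In 6 members both Eff+ libraries were above both Eff- libraries (11.3% of all genes were) and in 2 both were below (9.42%).

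The culture values followed the replicate number. Within the libraries numbered 1, 78 of 85 members were higher in Eff+ than in Eff- (median log2 ratio 0.79), and within those numbered 2, 43 were higher and 42 lower (median 0.00). Leaving out 1 library gave medians from -0.19 (without Eff- library 1) to 1.44 (without Eff- library 2). Rps19, for instance, had 217 and 386 CPM in Eff+ and 84.9 and 443 CPM in Eff-, with log2 fold change 0.19 (SE 0.89). Rplp0 had 344 and 506 CPM in Eff+ and 199 and 630.1 CPM in Eff- (0.04, SE 0.72). In both genes the Eff- libraries enclosed the Eff+ libraries.

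Library 1 had lower values than library 2 for most of the family in both sorts of cultured macrophage. Against library 2 it was lower for 73 of 85 members in Eff+ (median log2 ratio -0.55) and for 77 in Eff- (median -1.28), while all genes had medians of 0.03 in both. Dendritic cell markers (7 genes) took 0.00407 and 0.00164% of counts in culture Eff+ and 0.0345 and 0.00611% in culture Eff-, highest in Eff- library 1, and their part in these values was not tested. Only 7 subunit genes were higher in Eff- library 1 than in Eff- library 2, among them Rps12, with 79.4 and 30.7 CPM in Eff+ and 134.9 and 31.4 CPM in Eff-. The others were Rpsa, Rpl5, Rpl12, Rpl24, Rps10 and Rps25, of which the last 2 and Rpl12 were chosen after their values were seen. Genes of small nucleolar RNAs lie within 4 of the 7 and within 30 of all 77 subunit genes. Those 30 took 48.9% of the subunit genes' counts in Eff- library 1, against 41.1 to 43.7% in the other 9 libraries of both models.

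**Figure D5:**
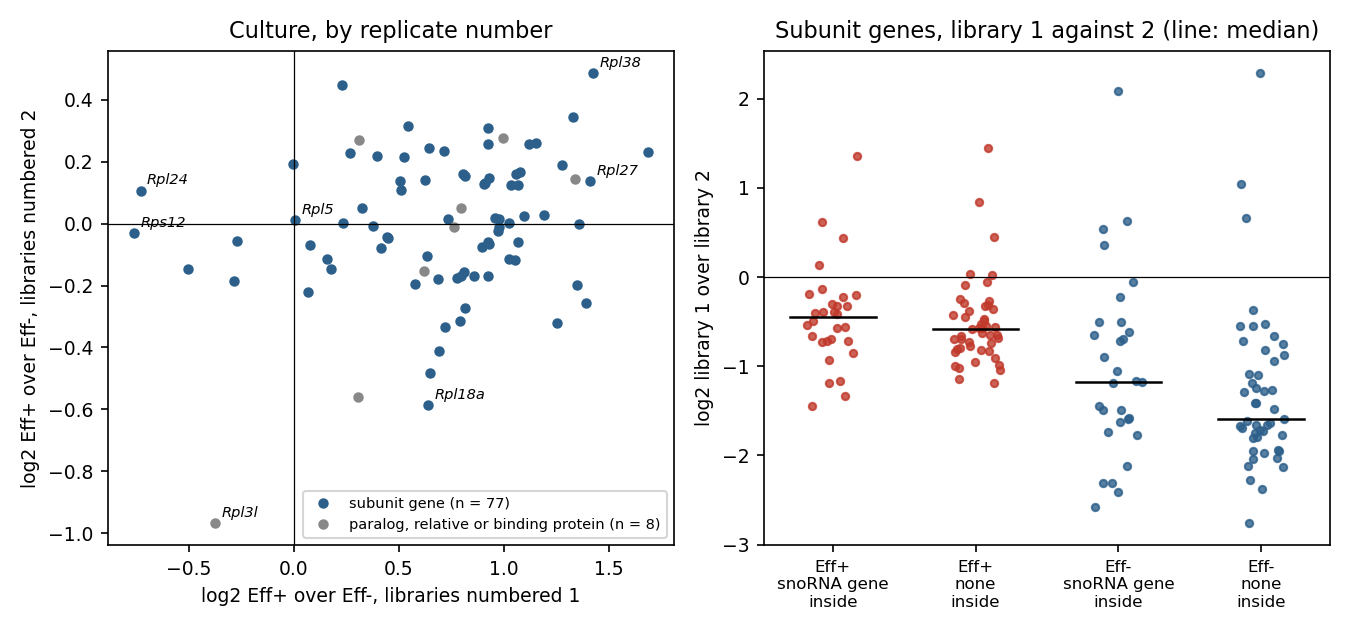
Left, log2 ratio of Eff+ over Eff- in culture within the libraries numbered 1 (x axis) and numbered 2 (y axis), 1 point per tested member. Right, log2 ratio of library 1 over library 2 for subunit genes with and without a small nucleolar RNA gene inside, Eff+ red and Eff- blue, with medians of -0.45 and -0.59 in Eff+ and -1.17 and -1.59 in Eff-.

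The members of smallest p in culture, none of them called, show how wide the errors were. Rps19bp1 had 41.1 and 27.4 CPM in Eff+ and 15.9 and 24.7 CPM in Eff- (log2 fold change 0.75, SE 0.45). Rpl34 had 143 and 140.7 CPM in Eff+ and 68.5 and 126 CPM in Eff- (0.55, SE 0.48), and both were without overlap. Rpl31 (0.56, SE 0.48), Rpl38 (0.77, SE 0.70) and Rpl21 (0.58, SE 0.54) overlapped between the groups. On the negative side Rps20 had 51.8 and 69.1 CPM in Eff+ and 73.7 and 76.5 CPM in Eff- (-0.31, SE 0.39). Rpl3l was under 1 CPM, Rps12 was at -0.60 (SE 0.86), Rpsa at -0.25 (SE 0.44) and Rpl24 at -0.74 (SE 1.48). The pathway lists had no call in culture, with medians of 0.44 for biogenesis, 0.34 for initiation, 0.30 for mitochondrial ribosomal proteins, 0.12 for elongation and TOP messengers and 0.01 for control genes.

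Whether wound and culture macrophages differed in the response of the family was tested in a fit over all 10 libraries, as the wound log2 difference minus the culture log2 difference. No member was called, as no gene was (0.0% of 20270, smallest adjusted p of a member = 0.41). An unadjusted p under 0.05 was reached by 5 members (11.0% of all genes reached it). The members' median was -0.73 beside 0.32 over all genes, and 78 of 85 values were negative, as were 8397 of 20270 over all genes. That gap depended on the culture Eff- libraries. Without culture Eff- library 1 the medians were -0.26 over members and -0.27 over all genes, and without culture Eff- library 2 they were -1.66 and 0.66. Rpl31 (-1.08, SE 0.44), Rps19bp1 (-1.17, SE 0.49), Rpl34 (-1.05, SE 0.43), Rps24 (-0.92, SE 0.39) and Rpl26 (-0.89, SE 0.39) had the smallest p among negative values, and Rpl3l (1.95, SE 1.03) among positive ones. Without culture Eff- library 2, which leaves library 1 alone in its group and assumes that it varies like the others, 44 members (51.8%) were called lower, beside 1128 of all 23641 genes (4.77%), and 0 were called with any other single library left out.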

How the data were processed

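Each deposited table held raw read counts per gene, 1 column per library. Per the file headers, the authors counted wound reads with featureCounts 1.6.0 at default options (no strand or multi-mapping option) against Ensembl release 106 (GRCm39), so reads of antisense neighbours cannot be told apart. The aligner, and the counting command for culture, are not given in these sources. Trimmomatic 0.39 is named in the submitters' processing notes. Another 4 columns among the culture counts match no sample and were not used. GENCODE vM21 named 52081 of 55414 identifiers, holding 99.91% of counts. Libraries were grouped by title.

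Members and lists were chosen with earlier results of these data known. Wound and culture libraries were fitted separately in R 4.3.3 with edgeR 4.0.16 (TMM scaling, filterByExpr, quasi-likelihood test, Benjamini-Hochberg adjustment over all genes tested, threshold 0.05), and the difference between models over all 10 libraries. The models share no library. SE is the log2 fold change over the square root of F. Library ratios used a pseudocount of 0.5 CPM. TPM used the gene lengths per the file headers. Named were the called members (up to 10 per direction), or with fewer than 5 called the 5 of smallest p in each direction, 28 fixed symbols (Rps4l was not a protein-coding member), and up to 3 called genes per list and direction. Alternatives were other scalings, DESeq2 1.42.0, other filters, a replicate block and each library left out. Leaving out whole replicate numbers was chosen after seeing the data. Replicates of a group differed by more than sampling noise (chi-square per degree of freedom 78.9 to 460). The procedure was tested on simulated counts. A gene of these lists is not reported here.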

Additional observations from a re-analysis of the deposited data

How the results depend on the processing

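Negative values were found for 78 to 83 of 85 members in wounds (79 of 83 with a mean CPM of at least 1) under every scaling, filter, tool and left-out library that was run, with medians of -0.60 to -0.34 except -0.88 with library totals only. The count of members called lower in wounds was 6 (7.06%, beside 3.79% of all genes). Relative log expression scaling gave 3 (3.53%, beside 3.1% of all genes), and library totals only gave 66 (77.6%, beside 17.8%). DESeq2 gave 28 (32.9%, beside 8.08%), and a mean CPM of at least 1 gave 10 (12%, beside 5.57%). With 1 library left out 0 to 4 members were called lower, beside 0 to 2.88% of all genes. Without both libraries numbered 2, 0 members and 0 genes were called. Upper quartile scaling gave 5 (5.88%, beside 3.56%), TMM without the members 8 (9.41%, beside 4.02%) and no filter 7 (8.24%, beside 2.48%). A replicate block gave 27 member calls in wounds (1268 of all 14908 genes were called lower) and 0 in culture (48 genes called) and for the difference between models (441 genes called). The labels do not say whether equal numbers pair libraries. Deviations of same-numbered wound libraries correlated at 0.41, 0.017 and 0.23 over genes, and at 0.51, -0.33 and 0.60 over members. The values were not over 0.1 in each pair, so no block was used in the values reported, although both libraries numbered 2 share a high Lyz2 count. In culture the 2 same-numbered pairs mirror each other and give the same value (0.74, and 0.90 over members). The culture values reported use no block either, although 0.74 is over 0.1, and with a block the members' median was 0.38. In culture no setting called a member, and the median ranged from -0.19 to 1.44 with 1 library left out. For the difference between models 0 to 44 members were called with 1 library left out, and 0 without both culture libraries numbered 1. The causes were not tested. Counts limit the low members (Rps10, Rpl24, Rpl39l, Rpl3l), and 2 libraries a group limit culture.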

Other observations

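The kinases that share the Rps symbol are not ribosomal proteins and were left out of the family. Of 8 that were tested in wounds 1 was called (11.2% of all genes were), Rps6ka2, which encodes the ribosomal S6 kinase RSK3 and was chosen after its values were seen. It rose to 28.9, 61.5 and 52.5 CPM in Eff+ against 10.6, 7.86 and 15.3 CPM in Eff- (log2 fold change 2.08, SE 0.35, edgeR adjusted p = 0.014). Rps6kb1, the S6 kinase downstream of mTOR that phosphorylates Rps6, had 45.4, 46.5 and 51.8 CPM in Eff+ and 40.9, 58.6 and 55.1 CPM in Eff-, with overlap (-0.11, SE 0.18).

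Mitochondrially encoded genes took 0.507, 0.481 and 0.339% of counts in wound Eff+ and 0.690, 0.932 and 0.460% in wound Eff-, with overlap, and 1.38 and 1.59% in culture Eff+ against 1.56 and 1.40% in culture Eff-.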
